A study of Mus musculus with 26 samples.

Results

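The classical and alternative arms of complement were followed here through 9 genes in the colon of mice undergoing azoxymethane–dextran sodium sulfate (AOM–DSS) tumorigenesis on a standard diet or on a diet with GW3965. The genes were *C1s1*, *C1ra*, *C1qa*, *C1qb*, *C1qc*, *C2*, *C3*, *C4b* and *Cfb*, which are 9 of the 35975 genes whose transcripts gave summed counts. All 9 were among the 17063 genes kept by the filter on low counts. The set was chosen by gene name with earlier results of these data known, because *C1s1* stood among the genes that separated the diets most clearly at day 70. The day 70 values of all 9 genes are therefore given as a description, without a test.

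The 26 samples of colon RNA came from wild-type male C57BL/6J mice that were about 10 weeks old at the start. The study describes its bulk RNA-seq both by mice per time point and as pools of a few animals sequenced as 1 sample, so whether a sample here is 1 mouse is not settled. Mice of 6 groups received 1 injection of AOM, a colon carcinogen, at 10 mg per kg of body weight. They then received DSS, a polymer that damages the colonic epithelium, in their drinking water. The study's methods give 3 cycles of DSS in total and place day 22 after the first. Day and number of cycles therefore cannot be told apart. These groups were sampled 22, 43 or 70 days after the injection on either diet, with 3 samples each. The other 2 groups, called day 0, were untreated mice on either diet with neither AOM nor DSS, with 4 samples each, of which 2 had been on the diet for 22 days and 2 for 43 days. GW3965 is a synthetic agonist of the liver X receptors (LXRs), nuclear receptors for oxysterols, and it was given in the food. Within a diet, the untreated mice shared 1 cage and the mice of days 22 and 43 shared another, so that cage and diet cannot be told apart at days 0, 22 and 43, and cage and treatment cannot be told apart where days 22 and 43 are set against untreated colon. Each day 70 sample had a cage of its own. The labels of the fourth untreated sample on GW3965 name both diets, and the sample was placed by its title.

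Complement is a cascade of plasma proteins that coats microbes and damaged cells. In the classical arm, C1q, built of the A, B and C chains encoded by *C1qa*, *C1qb* and *C1qc*, recognizes antibody or altered surfaces. It activates the proteases C1r (here *C1ra*) and then C1s (*C1s1*), and C1s cleaves C4 (*C4b*) and C2 (*C2*), whose fragments form the enzyme that cleaves C3. In the alternative arm, factor B (*Cfb*) joins cleaved C3 to form an enzyme of the same function, which amplifies the cascade. The liver supplies most circulating components, but C1q is made mainly by macrophages, and stromal and epithelial cells of the gut also transcribe *C3*, *C1s1*, *C1ra* and *Cfb*.

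Libraries held between 18195345 and 41522204 estimated counts, with a median of 20424702. Levels are given as CPM, the counts of a gene scaled to library size and adjusted between libraries by edgeR's trimmed mean method. The 12 LXR target genes listed as a check of the diet summed to 711–1206 CPM in the standard-diet samples and to 1703–3840 CPM in the GW3965 samples, and the untreated sample with conflicting labels was at 2058 CPM. All 10 markers of colon epithelium passed the filter on low counts, and their sum was 2272–13880 CPM over the samples. The RNA of standard-diet day 43 replicate 1 had an integrity number of 2.6, whereas the others had 6.8–10.0. GW3965 day 70 replicate 1 held 19510 CPM of 6 skeletal muscle markers, against 8.57–604 CPM in the other day 70 samples. Markers of stratified epithelium reached at most 3.91 CPM in untreated colon and up to 14790 CPM at day 70. At day 43 they already stood at 397–1335 CPM on standard diet and 121–3053 CPM on GW3965. The share of counts on 88 ribosomal protein genes was 10.0–18.6% at day 43 and 3.96–10.7% in the other samples, and it was carried in the fit as a covariate, where the study's methods correct for ribosomal RNA.

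The 9 genes lie in 4 clusters or single positions of the genome (GRCm38). *C1qb* (chr4:136880129-136886187), *C1qc* (chr4:136889804-136893065) and *C1qa* (chr4:136895917-136898803) follow each other on the minus strand, 3616 and 2851 bases apart. *C1ra* (chr6:124512405-124523443, plus strand) and *C1s1* (chr6:124530345-124542359, minus strand) point towards each other across 6901 bases. *C4b* (chr17:34728380-34743882), *Cfb* (chr17:34856374-34862518) and *C2* (chr17:34862604-34898265) are on the minus strand of the major histocompatibility complex, and only 85 bases separate *Cfb* from *C2*. *C3* (chr17:57203970-57228136, minus strand) is further along the same chromosome. The 250 bases before the start annotated by RefSeq on GRCm38.p6 were found for 5 of the 9 genes. For *C1ra* and *C1qc* this start lies inside the gene span given above. Most of each of these windows is therefore within that span and not upstream of it. They are shown because these members moved together in the samples and because an LXR site would be looked for there. Capitals mark matches on either strand to the AGGTCA half-site of nuclear receptors or to motifs of the inflammatory and myeloid factors C/EBP (TTGCNNAA), PU.1 (GAGGAA) and NF-kappaB.
C1s1, chr6:124542360-124542609, minus strand: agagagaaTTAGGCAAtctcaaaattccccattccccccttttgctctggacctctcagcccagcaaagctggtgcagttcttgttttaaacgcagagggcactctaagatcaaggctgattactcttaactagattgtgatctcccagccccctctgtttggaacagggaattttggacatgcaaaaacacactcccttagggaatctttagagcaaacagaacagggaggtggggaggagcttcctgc
C1ra, chr6:124512371-124512620, plus strand: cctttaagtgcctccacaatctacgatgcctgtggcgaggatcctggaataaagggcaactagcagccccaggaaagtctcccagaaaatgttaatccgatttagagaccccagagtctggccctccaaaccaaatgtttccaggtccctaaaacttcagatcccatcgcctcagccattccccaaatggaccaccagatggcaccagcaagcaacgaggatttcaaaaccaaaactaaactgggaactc
C1qb, chr4:136886201-136886450, minus strand: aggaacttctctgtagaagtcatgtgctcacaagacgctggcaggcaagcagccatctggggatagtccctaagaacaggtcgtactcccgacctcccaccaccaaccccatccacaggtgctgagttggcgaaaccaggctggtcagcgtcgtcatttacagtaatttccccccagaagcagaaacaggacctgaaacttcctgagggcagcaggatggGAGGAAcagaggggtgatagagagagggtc
C1qc, chr4:136892915-136893164, minus strand: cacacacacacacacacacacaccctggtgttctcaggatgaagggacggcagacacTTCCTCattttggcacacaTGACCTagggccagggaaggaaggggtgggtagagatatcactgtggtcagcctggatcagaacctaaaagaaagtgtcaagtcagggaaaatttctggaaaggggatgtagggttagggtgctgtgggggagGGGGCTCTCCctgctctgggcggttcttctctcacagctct
C3, chr17:57228137-57228386, minus strand: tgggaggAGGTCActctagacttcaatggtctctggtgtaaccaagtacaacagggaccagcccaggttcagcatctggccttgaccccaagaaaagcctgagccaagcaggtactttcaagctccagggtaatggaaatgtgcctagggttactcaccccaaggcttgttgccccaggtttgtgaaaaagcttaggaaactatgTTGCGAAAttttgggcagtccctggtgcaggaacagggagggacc

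The full LXR element of direct AGGTCA repeats spaced by 4 bases matched none of these windows, nor the other annotated *C1s1* window, which starts 38 bases further downstream. It matched 0.0152% of the 32851 promoters searched. A single AGGTCA half-site was present for *C3* and *C1qc*, and 14% of all promoters hold one. The C/EBP motif was present for *C1s1* and *C3* (9.56% of promoters), the PU.1 motif for *C1qb* and *C1qc* (23.3%) and the NF-kappaB motif for *C1qc* (7.25%). The *C1ra* window held none of the motifs searched, which also included those of the interferon response (GAAA repeats spaced by 2 bases, 2.98%), AP-1 (TGANTCA, 6.75%) and the TATA box (TATAAA, 12.4%). These matches describe letters in a window and not bound sites.

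In untreated colon, the C1q chains and *Cfb* were the most abundant of the 9 per transcript length. In TPM, which scales to library size and also divides by transcript length, the standard-diet means were 98.5 ± 16.5 for *C1qa*, 86.0 ± 11.5 for *C1qb* and 68.3 ± 13.3 for *C1qc* (SD, n = 4). *Cfb* followed at 58.6 ± 12.1 TPM, *C1s1* at 39.8 ± 5.07 TPM and *C3* at 24.4 ± 7.06 TPM. *C1ra* was at 16.97 ± 1.10 TPM, *C4b* at 14.99 ± 3.73 TPM and *C2* at 3.66 ± 1.22 TPM. The ranges of neighbours in this order overlapped, except those of *C1s1* and *C3*, whose gap was small, and those of *C4b* and *C2*. On GW3965 the same 4 genes led in another order, with *C1qa* at 78.9 ± 19.5 TPM, *Cfb* at 72.5 ± 2.97 TPM, *C1qb* at 72.4 ± 19.2 TPM and *C1qc* at 54.05 ± 12.2 TPM (SD, n = 4), and their ranges overlapped except those of *Cfb* and *C1qc*.

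Whether the LXR agonist moved complement transcripts before day 70 was asked by comparing the diets at day 0, day 22 and day 43. No member passed the test in any of these comparisons (edgeR's quasi-likelihood test, Benjamini–Hochberg false discovery rate of 0.05), none had an unadjusted P below 0.05, and DESeq2 called none. Of all tested genes, 0.0293% were called at day 0 and likewise 0.0293% at day 43, and 0.135% were called at day 22. *C1s1* averaged 76.5 ± 9.63 CPM on standard diet and 76.6 ± 9.64 CPM on GW3965 in untreated colon (SD, n = 4). At day 22 it averaged 132.6 ± 30.9 and 154.2 ± 30.4 CPM, and at day 43 it averaged 242.3 ± 25.98 and 157.5 ± 57.4 CPM (SD, n = 3). The fitted log2 difference (GW3965 over standard) ran from −0.42 for *C1qc* to 0.22 for *Cfb* at day 0, from −0.26 for *C4b* to 0.51 for *Cfb* at day 22, and from −0.54 for *C4b* to 0.11 for *C2* at day 43. Groups did not overlap in 0 of 9 members at day 0, in 1 at day 22 and in 0 at day 43, beside 2.29%, 23.6% and 10.9% of all genes. That 1 member was *Cfb*, at 160.5–220.8 CPM on GW3965 and 119.2–144.6 CPM on standard diet at day 22 (adjusted P = 0.555, quasi-likelihood test).

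**Figure D1:**
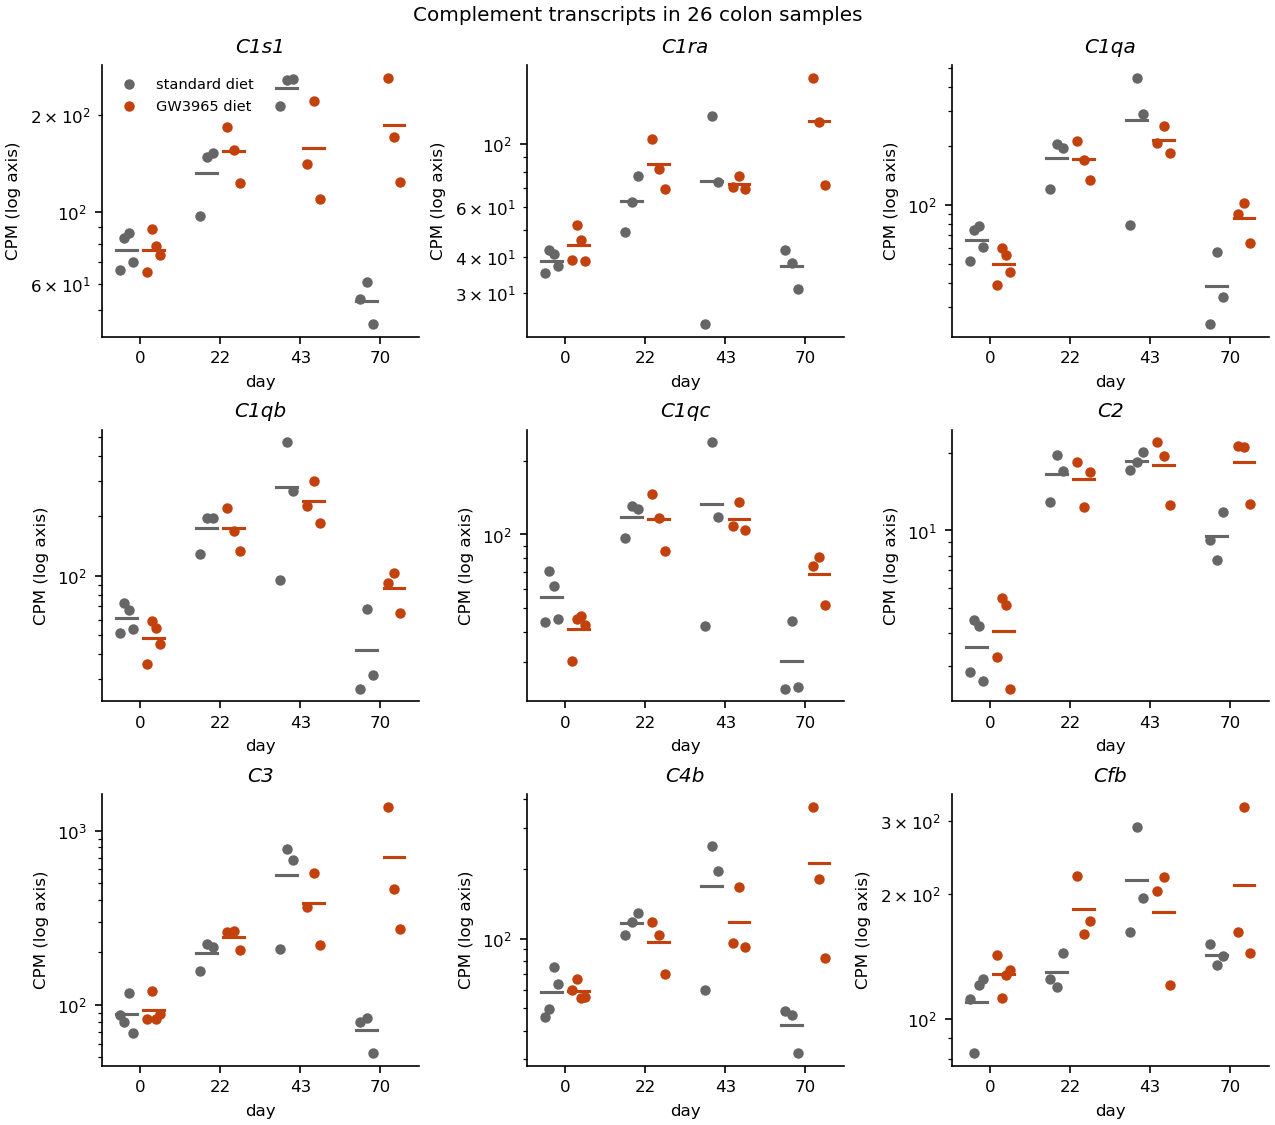
Level of each of the 9 complement genes (CPM, log axis) in every sample, by day (0 is untreated) and diet; points are samples and bars are group means. *C1s1* stood at 45.0–61.0 CPM in the standard-diet day 70 samples and at 124.3–260.8 CPM in the GW3965 day 70 samples, and all members were higher in GW3965 day 70 samples than in untreated samples of that diet.

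The comparison of AOM–DSS-treated with untreated colon on the same diet gave the clearest tested changes at day 22. On standard diet, 3 of 9 members rose, namely *C2*, *C1qb* and *C1qa*, whereas 7.73% of all genes were called and 6.19% were called higher. On GW3965, 5 of 9 members rose, namely *C2*, *C1qb*, *C1qa*, *C1qc* and *C1s1*, with 12.6% of all genes called and 9.13% called higher. Every member had a positive log2 fold change on both diets, with a median of 1.10 on standard diet and 1.30 on GW3965, whereas the medians over all genes were 0.00 and 0.02. In CPM, all samples of day 22 lay above all untreated samples for 8 of 9 members on standard diet and for 9 of 9 on GW3965. Of all genes, 15.9% and 25.2% did so. In TPM, *C1s1* overlapped as well on both diets, and *C2*, *C1ra* and *C1qc* overlapped on GW3965. The change at day 22 was not called different between the diets for any member, with 0 at an unadjusted P below 0.05 and 0.0234% of all genes called. That difference of log2 changes (GW3965 minus standard) ran from −0.29 for *C2* to 0.41 for *C1qc*.

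These counts depended on single libraries. Leaving out 1 library at a time gave 1–4 members called on standard diet and 1–5 on GW3965, and *C2* was called each time. On standard diet, *C2* alone was left without day 22 replicate 2 or 3 or without untreated replicate 1 or 4. On GW3965, *C2* alone was left without day 22 replicate 1. With only the 2 untreated samples of the same diet days, 1 member was called on each diet. With neither the library of low RNA integrity nor the one rich in skeletal muscle transcripts in the fit, an alternative chosen after seeing the data, 8 of 9 members were called on standard diet, beside 15.1% of all genes, and 7 of 9 on GW3965, beside 22.8%.

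*C2*, the protease precursor that C1s cleaves, was the least abundant member and had the largest fitted change at day 22 on standard diet. It stood at 2.83, 4.49, 4.255 and 2.625 CPM in untreated standard-diet samples and at 12.9, 19.6 and 17.05 CPM at day 22. The corresponding GW3965 values were 3.24, 5.50, 5.16 and 2.44 CPM and then 18.4, 12.3 and 16.9 CPM. In CPM, all day 22 samples were thus well above all untreated ones. In TPM the GW3965 samples overlapped, at 7.17–10.9 TPM at day 22 and 2.91–8.88 TPM untreated. The log2 fold change was 2.13 ± 0.30 (SE, adjusted P = 0.000629) on standard diet and 1.84 ± 0.30 (SE, adjusted P = 0.00065) on GW3965. *C2* remained at 17.2, 18.4 and 20.0 CPM in the standard-diet day 43 samples and at 22.0, 19.4 and 12.5 CPM in those on GW3965.

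The C1q chains moved almost as 1 transcript. *C1qa* stood at 51.4, 74.5, 77.7 and 60.6 CPM in untreated standard-diet samples and at 120.2, 203.7 and 194.0 CPM at day 22. On GW3965 it was at 38.8, 59.9, 55.4 and 45.3 CPM and at 212.2, 169.7 and 134.1 CPM. No day 22 sample overlapped with the untreated ones on either diet. *C1qa* rose by a log2 fold change of 1.38 ± 0.40 on standard diet (SE, adjusted P = 0.0382) and 1.78 ± 0.40 on GW3965 (SE, adjusted P = 0.00647). *C1qb* rose by 1.49 ± 0.40 (SE, adjusted P = 0.0258) and 1.83 ± 0.40 (SE, adjusted P = 0.00536). *C1qc* rose on GW3965 by 1.55 ± 0.39 (SE, adjusted P = 0.0125), and on standard diet its log2 fold change was 1.14 ± 0.38 (SE, adjusted P = 0.0754).

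The ratio of *C1qa* to *C1qb* CPM within a sample stayed between 0.832 and 1.16 in all 26 samples. The ratio of *C1qa* to *C1qc* was 1.05–1.35 in untreated samples, 1.25–1.57 at day 22, 1.76–2.47 at day 43 and 1.05–1.42 at day 70. *C1qc* was thus lower relative to its partners at day 43, where the ribosomal share of counts was highest and RNA integrity lowest. The part of RNA quality in this ratio was not tested.

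**Figure D2:**
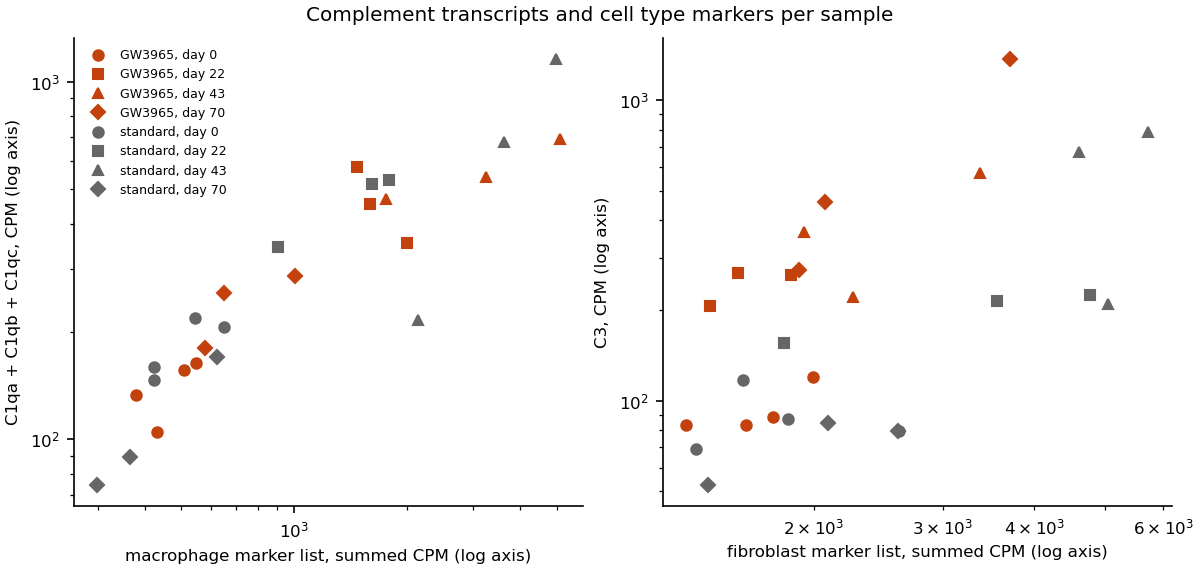
Left, summed CPM of *C1qa*, *C1qb* and *C1qc* against the summed CPM of 10 macrophage markers. Right, *C3* CPM against the summed CPM of 10 fibroblast markers. Points are the 26 samples, coloured by diet and shaped by day, on log axes. The macrophage sum was 379–652 CPM in untreated samples and 904–1992 CPM at day 22, and *C3* in the GW3965 day 70 samples lay above that of standard-diet samples of like fibroblast sum.

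Summed over 10 genes, markers of macrophages, the cells known to make C1q, moved with the C1q chains. The 10 markers, which include *Csf1r*, *Adgre1* and *Cd68*, summed to 424–652 CPM in untreated standard-diet samples, 904–1792 CPM at day 22, 2133–4970 CPM at day 43 and 299–624 CPM at day 70. On GW3965 the ranges were 379–548.5, 1470–1992, 1753–5088 and 578–1003 CPM. Of the 10, 8 had positive log2 fold changes and 2 were called higher at day 22 on standard diet, and 7 and 3 on GW3965. On standard diet 4 of the 10 lay above all untreated samples and 1 below, and on GW3965 5 lay above and 1 below. The lowest log2 fold changes were −1.28 on standard diet and −0.73 on GW3965. In whole tissue, fewer cells of a type and less RNA per cell cannot be told apart, and the part of macrophage number in the C1q values was not tested. The C1q chains together came to 24.3–40.0% of the macrophage sum in untreated samples and to 10.1–26.9% at day 43.

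The proteases *C1s1* and *C1ra* act as a pair in the C1 complex. *C1s1* stood at 66.3, 83.1, 86.2 and 70.4 CPM in untreated standard-diet samples and at 97.0, 147.9 and 152.8 CPM at day 22. On GW3965 it was at 65.3, 88.4, 78.6 and 74.0 CPM and then at 183.4, 156.3 and 122.8 CPM. In CPM the day 22 samples were above the untreated ones on both diets, although standard-diet replicate 1 was close to them. In TPM the groups overlapped on both diets. The log2 fold change was 0.92 ± 0.24 on GW3965 (SE, adjusted P = 0.018) and 0.71 ± 0.24 on standard diet, which did not pass the test (SE, adjusted P = 0.0798). The GW3965 call was lost without day 22 replicate 2 or untreated replicate 4, besides replicate 1 as above.

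*C1ra* stood at 35.1, 42.4, 41.1 and 37.2 CPM in untreated standard-diet samples and at 49.2, 62.6 and 77.0 CPM at day 22. On GW3965 the values were 39.2, 52.1, 46.1 and 38.7 CPM and 104.2, 82.0 and 69.5 CPM. In CPM the groups did not overlap on either diet, whereas in TPM those on GW3965 did. The log2 fold changes of 0.79 ± 0.35 and 1.08 ± 0.36 did not pass the test (SE, adjusted P = 0.196 and 0.0526). The ratio of *C1s1* to *C1ra* CPM was 1.67–2.10 in untreated samples and 1.27–1.74 at day 70. It reached 9.14 in the library of low RNA integrity, where *C1ra* was at 23.2 CPM and *C1s1* at 212.3 CPM.

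Both proteases have near copies next to them, *C1s2* and *C1rb*, so that reads could be shared between copies. *C1s2* was at most 1.84 CPM and *C1rb* at most 0.947 CPM in any sample. *C4a*, the copy of *C4b*, had no transcripts among those counted here.

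*C4b* and *C3* are the successive substrates of the cascade. *C4b* was at 45.8–75.4 CPM in untreated standard-diet samples and at 103.1, 117.5 and 129.5 CPM at day 22. On GW3965 it was at 55.4–66.9 CPM and then at 117.8, 103.3 and 70.0 CPM. *C3* stood at 87.0, 79.6, 117.2 and 68.9 CPM in untreated standard-diet samples and at 156.2, 224.9 and 214.6 CPM at day 22. On GW3965 it stood at 83.2, 120.0, 83.1 and 88.5 CPM and at 262.4, 267.0 and 206.8 CPM. Neither gene overlapped between day 22 and untreated samples, yet neither passed the test. The log2 fold changes of *C3* were 1.10 ± 0.46 and 1.30 ± 0.46 (SE, adjusted P = 0.159 and 0.0705), and those of *C4b* were 1.01 ± 0.42 and 0.72 ± 0.43 (SE, adjusted P = 0.166 and 0.302).

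*Cfb*, which drives the alternative arm, moved least. It stood at 82.6–125.2 CPM in untreated standard-diet samples and at 119.2–144.6 CPM at day 22, and the groups overlapped. On GW3965 it was at 112.5–142.7 CPM and then at 220.8, 160.5 and 172.2 CPM. The log2 fold changes were 0.23 ± 0.26 and 0.52 ± 0.27 (SE, adjusted P = 0.692 and 0.229). The start of *Cfb* lies 85 bases beyond the end of *C2* on the same strand, and the transcript Gm20547 that spans the locus had almost no counts.

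**Figure D3:**
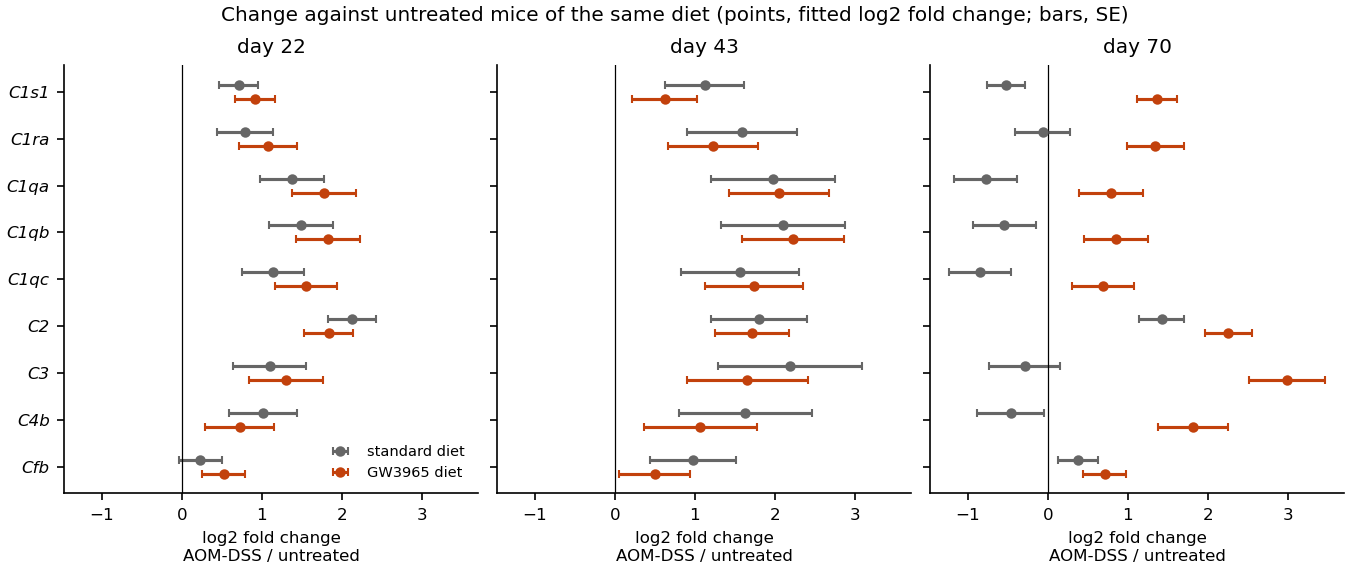
Fitted log2 fold change of each member against untreated colon of the same diet at days 22, 43 and 70; points are estimates, bars are standard errors, panels are days and colours are diets. The 3 changes of a diet share the same untreated samples, and day 70 is a description without a test. At day 70, standard-diet estimates lay from −0.85 to 1.42 and GW3965 estimates from 0.69 to 2.99.

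At day 43 no member passed the test on either diet. On standard diet no gene in the whole table was called (0.0%), and on GW3965 0.938% were. The ribosomal share carried in the fit was highest at day 43, so that covariate and day largely coincide. Standard errors were larger than at day 22 for every member, for *C1s1* on standard diet 0.494 against 0.243. A member that did not pass the test here is therefore not shown to be unchanged. At an unadjusted P below 0.05 stood 7 members on standard diet and 6 on GW3965, and DESeq2 called 0 and 2. The log2 fold changes against untreated colon were all positive, from 0.97 for *Cfb* to 2.19 for *C3* on standard diet (adjusted P = 0.341–0.717) and from 0.50 for *Cfb* to 2.23 for *C1qb* on GW3965 (adjusted P = 0.0788–0.695). Samples of day 43 lay above all untreated ones for 6 of 9 members on standard diet and for 8 of 9 on GW3965, beside 25.6% and 30.8% of all genes. Without the ribosomal covariate, 9 members were called on standard diet and 7 on GW3965, but 55.1% and 45.3% of all genes were then called too. The difference between the diets in the day 43 change was called for none of the members and for 0.0% of all genes, with no member at an unadjusted P below 0.05. It ran from −0.56 for *C4b* to 0.17 for *C1qc*.

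The samples of day 43 varied widely. *C3* was at 210.6, 783.6 and 675.2 CPM on standard diet and at 363.7, 573.4 and 220.9 CPM on GW3965. *C1qa* was at 78.8, 446.5 and 291.3 CPM and at 206.6, 253.4 and 183.0 CPM. The lowest standard-diet value of each of the 9 members was that of the library of low RNA integrity. *C1s1* spread less, at 212.3, 257.2 and 257.4 CPM on standard diet, and it was at 140.9, 221.3 and 110.2 CPM on GW3965.

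The scale also mattered at day 43. In TPM, *C1s1* on standard diet averaged 52.6 ± 7.33 at day 43 and 39.8 ± 5.07 untreated, a smaller step than in CPM. On GW3965 the TPM means were 40.9 ± 3.48 and 40.8 ± 8.19, so that the higher CPM of day 43 had no counterpart in TPM. *C1ra* in TPM averaged 15.5 ± 11.6 on standard diet and 17.7 ± 4.14 on GW3965 at day 43, against 16.97 ± 1.10 and 20.3 ± 4.09 untreated. The lower standard-diet mean rests on the library of low RNA integrity, at 4.855 TPM, while the others were at 27.9 and 13.7 TPM. *C3* stayed higher in TPM, at 70.7 ± 46.3 against 24.4 ± 7.06 on standard diet and 55.1 ± 3.49 against 26.5 ± 4.62 on GW3965 (SD, n = 3 and 4).

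At day 70, the last time point, the differences between the diets in these genes were largest, and the values are given as a description. All 9 members had higher means on GW3965, by fitted log2 differences between 0.56 and 3.36 with a median of 1.15, where the median over all genes was 0.02. In 7 of 9 members every GW3965 sample lay above every standard-diet sample, the exceptions being *C1qb* and *Cfb*. For comparison, 1.83% of all genes were called between the diets at day 70, and 10.5% were higher without overlap.

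**Figure D4:**
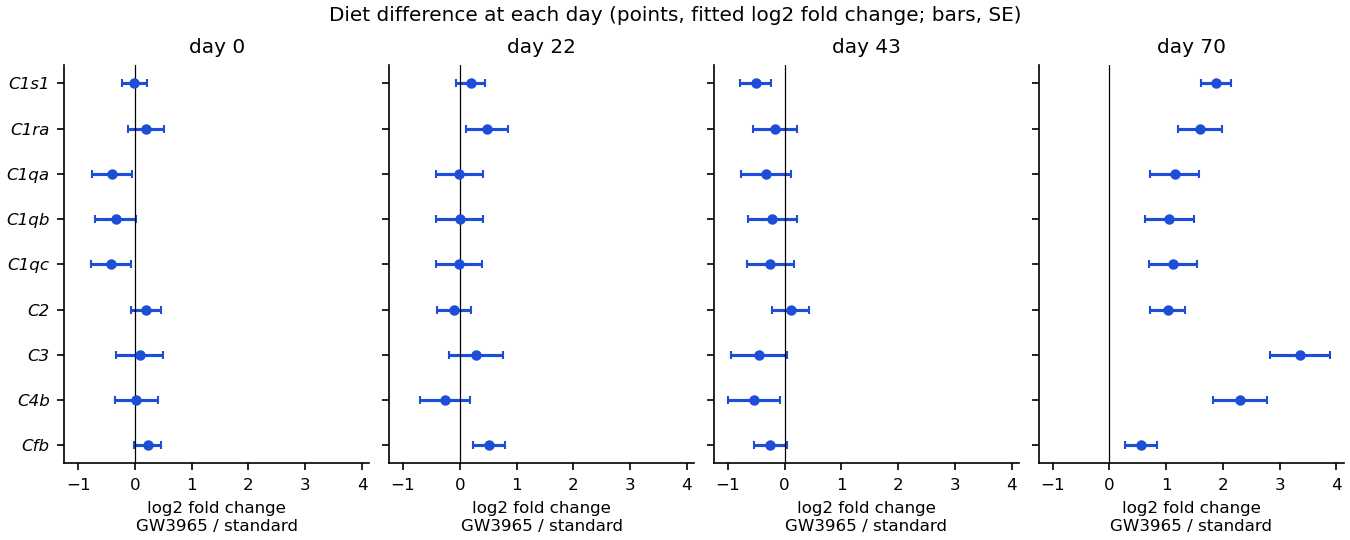
Fitted log2 difference (GW3965 over standard diet) of each member at day 0, 22, 43 and 70; points are estimates and bars are standard errors. Differences at days 0 to 43 lay between −0.54 and 0.51 and none passed the test, and those at day 70 lay between 0.56 and 3.36 and were not tested because the set was chosen with them in view.

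*C3* showed the largest difference at day 70, at 79.5, 84.6 and 52.6 CPM on standard diet and at 1373, 460.8 and 273.1 CPM on GW3965. The means of 72.2 and 702.3 CPM differed 9.72-fold, and the fitted log2 difference was 3.36 ± 0.53 (SE). *C4b* was at 48.6, 46.7 and 31.8 CPM against 372.3, 181.3 and 82.0 CPM, a fitted log2 difference of 2.31 ± 0.48 (SE). For both genes GW3965 replicate 1, the library rich in skeletal muscle transcripts, was the highest and replicate 3 the lowest, and all 3 exceeded every standard-diet sample. With neither that library nor the library of low RNA integrity in the fit, the *C3* difference was 2.43. Leaving out 1 day 70 library at a time gave 2.43–3.81 for *C3* and 1.64–2.75 for *C4b*.

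*C1s1* was at 53.8, 61.0 and 45.0 CPM on standard diet and at 260.8, 171.4 and 124.3 CPM on GW3965, 3.48-fold apart in the means. The fitted log2 difference was 1.88 ± 0.27 (SE), with 1.55–2.16 on leaving out 1 day 70 library at a time. *C1ra* was at 42.4, 38.3 and 30.9 CPM against 171.3, 119.4 and 71.5 CPM, a log2 difference of 1.60 ± 0.38 (SE). The order of the GW3965 replicates was the same as for *C3* and *C4b*. The groups did not overlap for either protease.

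The C1q chains differed less. *C1qa* was at 24.5, 57.6 and 33.8 CPM on standard diet and at 89.7, 102.0 and 64.1 CPM on GW3965, with a log2 difference of 1.15 ± 0.43 (SE). *C1qb* was at 26.8, 67.6 and 31.5 CPM against 91.8, 102.9 and 64.9 CPM, where standard-diet replicate 2 overlapped with GW3965 replicate 3. *C1qc* was at 23.3, 44.3 and 23.9 CPM against 74.2, 80.5 and 51.3 CPM. *C2* was at 9.20, 7.71 and 11.8 CPM against 21.3, 21.1 and 12.7 CPM, with a narrow gap between the groups. *Cfb* was at 151.9, 135.0 and 142.2 CPM against 162.5, 324.8 and 144.0 CPM and overlapped, its mean resting on GW3965 replicate 2. Leaving out 1 library gave a log2 difference of 0.12–0.80 for *Cfb*.

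Set against untreated colon, the standard-diet and GW3965 samples of day 70 took different positions. On standard diet only *C2* (log2 fold change 1.42 ± 0.28) and *Cfb* (0.38 ± 0.26, SE) had positive values, and both lay above untreated samples without overlap. *C1s1* lay below all untreated samples without overlap, at −0.53 ± 0.24, and *C1qc* had the lowest value at −0.85 ± 0.38 (SE). These 3 members without overlap stand beside 43.1% of all genes without overlap in either direction and 33.2% called. On GW3965 all 9 members lay above all untreated samples, with log2 fold changes from 0.69 for *C1qc* to 2.99 for *C3* and *C1s1* at 1.36 ± 0.24 (SE). On that diet 18.3% of all genes were higher without overlap and 21.8% were called. The standard-diet and the GW3965 changes rest on separate untreated samples, but each shares its day 70 samples with the comparison between the diets.

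Marker lists that moved at day 70 are given beside these values. The macrophage sum was 299–624 CPM on standard diet and 578–1003 CPM on GW3965, with 10 of 10 markers having positive log2 differences and none called. The fibroblast sum, over markers including *Pdgfra*, *Col1a1* and *Dcn*, was 1436–2604 CPM against 1907–3704 CPM, with 9 of 10 positive and none called, while 2 of these and 6 of the macrophage markers had an unadjusted P below 0.05. All 8 B cell markers were called higher, with sums of 5.84, 12.8 and 7.14 CPM against 64.3, 412.9 and 23.2 CPM, and GW3965 replicate 2 was highest both for these and for *Cfb*. The 5 adipocyte markers all had positive log2 differences, with a median of 5.28, none called and 3 at an unadjusted P below 0.05. Their sums were 7.46, 22.8 and 8.54 CPM against 145.9, 19.2 and 11.9 CPM, and GW3965 replicate 1, the highest for *C3*, *C4b*, *C1s1* and *C1ra*, was also highest here. The 6 smooth muscle markers were all positive too, with a median of 0.85, none called and 1 at an unadjusted P below 0.05, and sums of 1580–3509 CPM against 2782–7081 CPM. The stratified epithelium sum was 2520, 3562 and 3669 CPM against 14790, 4.79 and 10210 CPM. Of 7 hepatocyte markers only 2 passed the filter on low counts, and *Ahsg*, *Fgb*, *Fga*, *Serpina1a* and *Apoh* did not. The parts of these cell types in the day 70 values were not tested.

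Relative to fibroblast markers, *C1s1* and *C3* took unlike shares on the diets. *C1s1* came to 2.07–3.13% of the fibroblast sum in standard-diet day 70 samples and to 6.52–8.28% on GW3965. *C3* came to 3.05–4.04% and 14.3–37.1%. At day 22 the shares also stood apart, with *C3* at 4.72–8.58% on standard diet and 14.1–16.9% on GW3965. The fibroblast sum was then 1820–4763 CPM on the former and 1442–1865 CPM on the latter. At day 43 the shares of the diets overlapped, with *C3* at 4.18–14.7% and 9.75–18.7% and *C1s1* at 4.21–5.59% and 4.86–7.26%. In untreated samples the shares of both genes overlapped too. The ratio of *C3* to *C1s1* CPM was 0.959–1.36 in untreated samples, 1.17–1.48 in standard-diet and 2.20–5.26 in GW3965 day 70 samples. These ratios describe the samples and were not tested.

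Transcript estimates pointed to shifts within *C1s1* and *C4b*. Of the *C1s1* counts, 62.8% were assigned to a transcript of 2906 bases and 35.9% to one of 2946 bases. Both are annotated as protein-coding, and how they differ in structure was not examined. The share of the 2946-base transcript was 15.6–25.4% in untreated samples. At day 22 it was 16.8, 45.3 and 39.5% on standard diet and 50.2, 39.5 and 42.5% on GW3965. At day 70 it was 35.5–39.5% on standard diet and 37.1–38.9% on GW3965. Among treated samples, standard-diet day 22 replicate 1 alone lay within the untreated range at days 22 and 70, and that sample also had the lowest *C1s1* level of day 22. At day 43 the share was 30.9, 56.0 and 21.4% on standard diet and 49.3, 54.6 and 34.3% on GW3965.

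**Figure D5:**
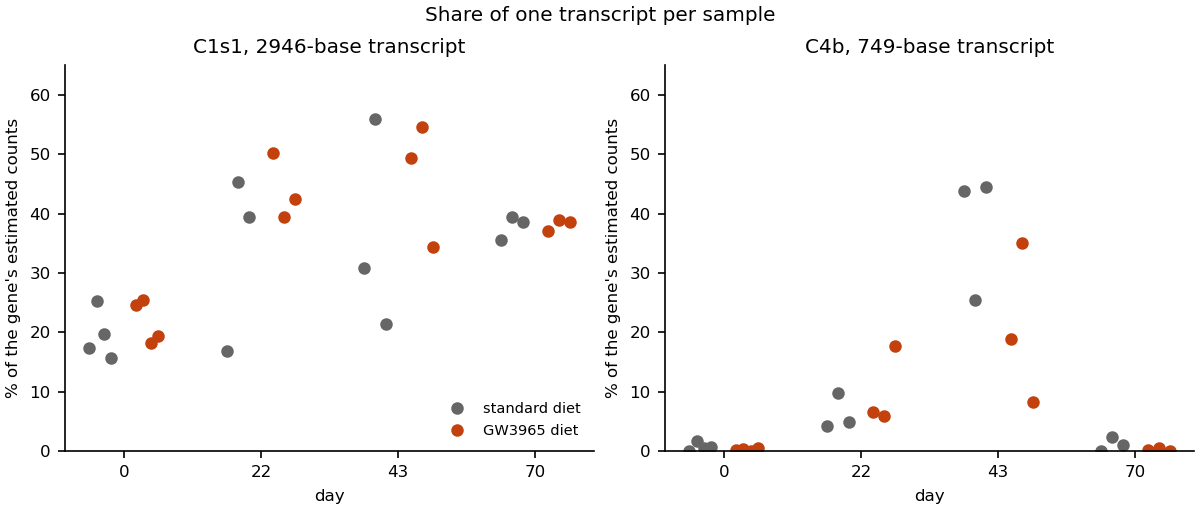
Share of a gene's estimated counts (%) assigned to the 2946-base transcript of *C1s1* and to the 749-base transcript of *C4b* in every sample, by day and diet; points are samples. The *C1s1* transcript took 15.6–25.4% in untreated samples and 35.5–39.5% at day 70 over both diets, and the *C4b* transcript took up to 44.4% at day 43.

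For *C4b*, a retained-intron transcript of 749 bases took 0–1.6% of counts in untreated samples and 4.2–17.6% at day 22. At day 43 it took 43.8, 25.5 and 44.4% on standard diet and 18.8, 35.1 and 8.3% on GW3965, and at day 70 it took 0–2.4%. The *C4b* CPM at day 43 therefore include counts that are not from the 5379-base coding transcript. A 905-base form of *Cfb*, annotated as protein-coding, reached 40.1% of counts in the library of low RNA integrity and at most 27.4% in the others. *C1qa*, *C1qb* and *C1ra* had 1 transcript each. Estimates for transcripts that share most of their sequence rest on few distinguishing reads, and these shares were not tested.

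The rest of the pathway was followed through 40 further genes, of which 31 passed the filter. *Masp2*, *Mbl1*, *Mbl2*, *Fcnb*, *Hc*, *C8a*, *C8b* and *C9*, that is most of the lectin and terminal components, did not pass, and nor did *C4a*. Between the diets, 0 of 31 were called at days 0, 22 and 43, with 1, 1 and 2 at an unadjusted P below 0.05. At day 70, 5 of 31 were called higher on GW3965 and none lower, beside 1.83% of all genes called, but DESeq2 called 10, and leaving out 1 library at a time gave 0–11. The count was 0 without standard-diet replicate 1 or 3, 1 without replicate 2, 2 without GW3965 replicate 1 and 11 without GW3965 replicate 3. These genes were listed with the day 70 difference of *C1s1* known. Their day 70 calls, between the diets or against untreated colon, are therefore not independent of that choice.

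Those called at day 70 included a regulator that restrains the cascade and a receptor. *Serping1*, which encodes the C1 inhibitor of C1r and C1s, was at 56.1, 68.0 and 45.7 CPM on standard diet and at 257.9, 149.1 and 107.7 CPM on GW3965, a log2 difference of 1.58 ± 0.33 (SE, adjusted P = 0.0252). *Cr2*, the complement receptor of B cells and follicular dendritic cells, was at 0, 0.0435 and 0.296 CPM against 3.94, 40.2 and 1.45 CPM (7.00 ± 1.24, SE, adjusted P = 0.0182). *Cr2* was highest in the same replicate as the B cell markers. *Serping1* followed *C1s1* closely over the 26 samples (Pearson r = 0.918), so its day 70 call is not separate from the *C1s1* difference.

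At day 22 the receptors on leukocytes led the remaining genes. On standard diet 7 of 31 were called higher and none lower, and on GW3965 9 were higher and none lower, beside 6.19% and 9.13% of all genes called higher. *Itgb2*, the beta chain shared by complement receptors 3 and 4, rose by a log2 fold change of 1.85 ± 0.44 (SE, adjusted P = 0.014) on standard diet and 2.05 ± 0.45 (SE, adjusted P = 0.00505) on GW3965. Its partner *Itgax* rose by 1.27 ± 0.31 (SE, adjusted P = 0.0146) and 1.42 ± 0.32 (SE, adjusted P = 0.0056). Its partner *Itgam* rose by 1.62 ± 0.42 (SE, adjusted P = 0.0216) and 1.69 ± 0.42 (SE, adjusted P = 0.0115). *Clu*, which encodes clusterin, an inhibitor of the terminal complex, rose by 1.59 ± 0.38 (SE, adjusted P = 0.014) on standard diet. Markers of neutrophils, cells that carry these receptors, summed to 165–233 CPM in untreated standard-diet samples and 303–803 CPM at day 22. On GW3965 they summed to 96.4–245 CPM untreated and to 538.0, 184.5 and 537.5 CPM at day 22. Replicate 2 on that diet thus lay within the untreated range. The part of neutrophils in the receptor values was not tested. Leaving out 1 library gave 0–8 called on standard diet, where 0 were called without untreated replicate 1, 1 without day 22 replicate 3, 3 without untreated replicate 4 and 4 without day 22 replicate 2. On GW3965 it gave 1–7, with 1 called without day 22 replicate 1 and 5 without untreated replicate 4.

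At day 43, 0 of 31 were called on either diet, with 9 and 7 at an unadjusted P below 0.05, and DESeq2 called 0 and 1. The difference between the diets in the change was called for 0 of 31 at both days, with 2 and 0 at an unadjusted P below 0.05. At day 70 against untreated colon, 3 of 31 rose and 7 fell on standard diet, and 11 rose and none fell on GW3965, where 33.2% and 21.8% of all genes were called. The standard-diet share of the listed genes was thus near that of all genes. *Cfi*, the protease that inactivates C3b and C4b, rose with the smallest P on both diets. Its log2 fold changes were 7.16 ± 1.02 (SE, adjusted P = 9.32e-05) and 5.40 ± 0.97 (SE, adjusted P = 0.000759). They start from levels near 0, at 0.060 ± 0.045 CPM untreated on standard diet and 0.081 ± 0.041 CPM on GW3965 (SD). At day 70 the means were 10.5 ± 7.05 and 2.98 ± 3.05 CPM (SD), so the samples were uneven. *Cd59a*, which blocks the terminal complex on cell surfaces, fell by 2.20 ± 0.42 on standard diet (SE, adjusted P = 0.000751), and *Cr2* fell by 6.05 ± 1.18 (SE, adjusted P = 0.000909). Without standard-diet day 70 replicate 2, 6 genes were called in place of 10.

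Across the 26 samples, the genes most like each member were largely other members. These correlations of log2 CPM describe samples that share treatment, depth and tissue make-up. The genes closest to *C1s1* included *C3* (Pearson r = 0.935, Spearman rho = 0.921), *Serping1* (0.918 and 0.94), *Vcam1* (0.912 and 0.891) and *Ifi205* (0.899 and 0.865). *C1ra* was closest to *C4b* (r = 0.88) and *Slfn8* (0.87), and *C3* was closest to *C4b* (0.939) and *C1s1*. *C4b* was closest to *C3* and *Serping1* (0.896). *C1qa* was closest to *C1qb* (0.994) and *C1qc* (0.972), and *C1qb* was close to *C1qa* and to *Cfp* (0.972), the gene for properdin, which stabilizes the alternative enzyme. *C1qc* was closest to *C1qa* and *C1qb* (0.965).

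The remaining members had other neighbours. *C2* was closest to *Steap4* (r = 0.951) and *Prdm1* (0.94), and *Cfb* to *Ctsc* (0.81) and *Cd14* (0.782), a receptor for bacterial lipopolysaccharide. *Cfb* was thus the member with the loosest likeness, and its r with *C1qc*, 0.459, was the lowest between any members.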

How the data were processed

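Bulk RNA sequencing of mouse colon was available for 26 samples in 8 groups of diet and day. For each sample, the authors deposited the transcript table of kallisto (version not given in the sources used here) on the GRCm38 transcripts, with estimated counts, which need not be whole, and TPM. Levels in TPM were taken from the deposited column by summing transcripts. Estimated counts were summed per gene by Ensembl identifier and rounded. Identifiers matched for 97.8% of the 119414 transcripts, and unmatched ones held 0.615–0.999% of counts.

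Genes passing edgeR's filter by expression (17063) were normalized by TMM. The main test was the quasi-likelihood F-test of edgeR in 1 fit of the 8 groups plus, as a covariate, the share of counts (in percent) that fell on 88 ribosomal protein genes, with Benjamini–Hochberg adjustment over all genes tested and a threshold of 0.05. The study's methods correct for the percentage of ribosomal RNA because RNA degradation differed between samples, and ribosomal protein genes stand in for it here, without its interactions with diet and day. R 4.3.3, edgeR 4.0.16, limma 3.58.1 and DESeq2 1.42.0 were used. Likeness was the Pearson correlation of log2 CPM with a prior count of 2. The scripts were tested on simulated data. The depth of 18195345–41522204 counts limits *C2* (49–572 counts per sample) most.

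The members and gene lists were chosen with earlier results of these data known. The text names all 9 members, of the other complement genes at most the 3 of smallest P in a comparison among those called, the near copies, the 5 genes most like *C1s1* and the 2 most like each other member, except for items that are not reported here. Alternatives were DESeq2, the likelihood ratio test, other size factors, no filter, no or another quality covariate, summed copies, untreated samples of the same diet days, a replicate block and each library left out. The sources differ on whether a sample is 1 mouse or a pool, so P values measure only the spread between these samples. No promoter was printed for *C1qa*, *C2*, *C4b* and *Cfb*, and no protein sequence was used.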

Additional observations from a re-analysis of the deposited data

Results flagged for a closer look

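*C3* in the untreated GW3965 samples was picked out because 1 sample lay far from the others. Replicate 2 stood at 120.0 CPM, whereas the other 3 stood at 83.1–88.5 CPM, a gap of 0.855 of the group's range which exceeds Dixon's critical value for 4 samples. Over 18 groups of 4 samples examined, chance gives such a gap in about 1 of 20.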

How the results depend on the processing

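Recomputing 109 results under the alternatives gave 1433 values. Of these, 271 counts and 1005 log2 fold changes were classed as the same. A count was so classed if it stayed near the main count, so it need not be equal. Tested log2 fold changes so classed kept their direction and their side of the threshold. For the members at day 70, which were not tested, no threshold applied and only the size of the shift was judged. For members called at day 22 on standard diet (3), the count was 5 with RNA integrity as covariate, 5 with the replicate block, 1 with untreated samples of the same diet days and 8 with neither the library of low RNA integrity nor the muscle-rich one, an alternative chosen after seeing the data. On GW3965 (5) it was 1 with untreated samples of the same diet days. At day 43 it was 9 on standard diet without the ribosomal percentage or with RNA integrity. On GW3965 it was 7 without the percentage, 8 with RNA integrity, 2 by DESeq2, 3 by the likelihood ratio test and 2 without these libraries. For the other 31 complement genes, the count between diets at day 70 (5) was 10 by DESeq2 and 0 with the block within days. Without these libraries it was 11 at day 22 on standard diet and 2 at day 43 on GW3965. At day 43 it was 17 and 14 without the percentage, and 1 by DESeq2 on GW3965. The *C2* difference between diets at day 43 reversed to −0.044 without the percentage and −0.027 with RNA integrity, and the *C1qc* difference of day 43 changes to −0.026 with untreated samples of the same diet days and −0.216 without these libraries. *C3* between diets at day 70 moved to 2.43 without them. The cause was not tested in any of these.

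Leaving out 1 library at a time gave 1–4 and 1–5 members called at day 22. For other complement genes it gave 0–11 between diets at day 70, 0–8 and 1–7 at day 22 and 6–10 on standard diet at day 70. Log2 values ran from −0.075 to 0.197 for *C2* and from −1.46 to 0.046 for *C4b* between diets at day 43, from −0.108 to 1.84 for *C1qc* at day 43 on standard diet, from −0.375 to 1.21 for *C1qc* and from −1.51 to 0.031 for *C4b* in the difference of day 43 changes, from 2.43 to 3.81 for *C3* between diets at day 70, and from −0.133 to 0.028 for *C1ra* at day 70 on standard diet. Samples of the same number did not deviate together (mean correlation of −0.066 over 13 pairs, from −0.37 to 0.201), so that they share only a number and the block moved no other count of calls by over 1.5 times.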
